A study of Mus musculus with 8 samples.

Results

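The core histone genes encode the H2A, H2B, H3 and H4 proteins around which DNA is wound in the nucleosome. They were taken as all mouse genes whose current or older symbol carries a core histone cluster name, together with the replacement variants H2az1, H2ax, H3f3a and H3f3b. This gave 68 genes: 58 by current symbol, 4 replacement variants, and 6 by an older symbol alone (H2aw, H2bu2, H4f16, H4bc24, H2bu1-ps and H2af-ps2). Of these 68 genes, 44 had a named probe, and all 44 were among the 22685 features tested in the whole series. The rule uses gene symbols alone.

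Expression was measured on 8 one-colour arrays of mouse cells described as undifferentiated, all of strain C57BL/6J. There were 4 arrays of OSKH induced pluripotent stem cells (iPSCs), 3 of OSK iPSCs (named as the control), and 1 array of the embryonic stem cell (ESC) line B6J-23. OSK is taken to stand for the reprogramming factors Oct4, Sox2 and Klf4, which both iPSC groups would then share, and H for the oocyte linker histone H1foo, but the labels spell out none of these names. The donor cells, the vectors and the time in culture are not given in the sources used here. Whether the replicates were independent lines, clones or dishes is not stated, and every p-value here therefore reflects variation among these particular samples, which may be technical.

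Most core histone genes are replication-dependent: they lie in clusters, are transcribed in S phase to package new DNA, and give transcripts that end in a stem-loop rather than a poly(A) tail. Of the replacement variants, H2A.Z and H3.3 are made throughout the cell cycle from polyadenylated transcripts and are placed at active genes and regulatory elements. H2A.X is phosphorylated around DNA breaks. Pluripotent stem cells divide fast, with a short first gap phase, and spend much of their cycle in S phase. The labelling kit named in the labels is of a type that starts from poly(A) tails, so a cluster gene's signal need not follow its whole transcript pool. The genes of a family are also near copies of each other, and a probe may read several of them, which could not be checked without probe sequences.

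By family the 68 genes comprised 22 of H2A (15 with a probe), 19 of H2B (11), 14 of H3 (9) and 13 of H4 (9). By position 50 belonged to the Hist1 cluster (30 with a probe), 10 to Hist2 (7), 3 to Hist3 (2), 1 to Hist4 (1) and 4 were the replacement variants (4). Of the 24 genes without a named probe, 3 were pseudogenes. Among the 44 measured genes 41 were well above background on all 8 arrays. The other 3 were H2ac6 on 4 arrays, H2bc23 on 4 and H2bc8 on 5.

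The sequence before the start of 5 genes is shown because these genes carry the results below or stand for their family. H2bc3 and H2bc23 are H2B genes whose iPSC groups did not overlap, H2ac12 stands for a block of H2A genes that moved together, and H3c11 and H4c17 varied most among the H3 and the H4 genes. The sequences are from RefSeq (GRCm38.p6), end at the base before the annotated start, and are cut where another annotated gene begins. They lie at chr13:23746515-23746733 (plus strand), chr13:21810200-21810366 (minus), chr13:22035644-22035820 (minus), chr13:21783398-21783647 (minus) and chr13:21811496-21811745 (plus). Capitals mark matches, on either strand, to 3 motifs. These are the octamer ATTTGCAT, which POU factors such as Oct1 and Oct4 bind, CCAAT, which NF-Y binds, and the letters TATAAA, wherever they lie. None of the 3 motifs overlaps another in these sequences.
H2bc3: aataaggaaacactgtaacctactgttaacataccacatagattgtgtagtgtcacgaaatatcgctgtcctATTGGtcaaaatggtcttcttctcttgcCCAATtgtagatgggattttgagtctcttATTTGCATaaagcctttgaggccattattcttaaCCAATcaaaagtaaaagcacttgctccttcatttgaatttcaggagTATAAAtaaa
H2bc23: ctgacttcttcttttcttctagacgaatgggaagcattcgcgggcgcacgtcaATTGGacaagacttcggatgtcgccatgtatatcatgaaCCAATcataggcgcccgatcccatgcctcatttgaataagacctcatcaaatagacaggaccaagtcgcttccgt
H2ac12: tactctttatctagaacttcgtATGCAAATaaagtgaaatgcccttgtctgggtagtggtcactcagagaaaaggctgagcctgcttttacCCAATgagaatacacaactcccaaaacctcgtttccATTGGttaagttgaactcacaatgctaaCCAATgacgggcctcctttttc
H3c11: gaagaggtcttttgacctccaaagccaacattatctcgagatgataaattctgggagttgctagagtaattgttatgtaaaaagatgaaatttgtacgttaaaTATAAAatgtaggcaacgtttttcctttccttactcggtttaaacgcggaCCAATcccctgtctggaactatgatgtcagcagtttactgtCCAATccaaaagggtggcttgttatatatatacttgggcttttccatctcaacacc
H4c17: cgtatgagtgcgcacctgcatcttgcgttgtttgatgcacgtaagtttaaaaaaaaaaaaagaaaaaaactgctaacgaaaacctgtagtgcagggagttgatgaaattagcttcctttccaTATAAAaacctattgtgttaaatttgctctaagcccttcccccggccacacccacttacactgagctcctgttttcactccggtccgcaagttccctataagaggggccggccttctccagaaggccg

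Over the 250 bases before the start, which RefSeq gave for 59 of the 68 genes, the letters of the octamer were found before 15 genes (25.4%) and before 1.6% of all 32851 windows of that length. They were found before 7 of 18 H2A and 7 of 16 H2B cluster genes, 1 of 3 replacement variants, and 0 of 10 H3 and 0 of 12 H4 cluster genes. These windows can reach into a neighbouring gene, and those of genes facing away from each other can overlap, so the same match can count for both. CCAAT was present before 48 of 59 genes (81.4%, against 33.8% of all windows). It stood before all 18 H2A and all 16 H2B cluster genes, 8 of 10 H3 and 3 of 12 H4 cluster genes. TATAAA was present before 26 of 59 genes (44.1%, against 12.4%). In the printed sequences the octamer begins 90 bases before the start of H2bc3 and, on the opposite strand, 155 bases before that of H2ac12. TATAAA begins 10 bases before the start of H2bc3, 147 before that of H3c11 and 128 before that of H4c17. A match is a description of these letters, not evidence of binding or of a working TATA box.

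Each level below is a log2 signal from which the array's 75th percentile was subtracted, so 0 is the signal of that percentile, and differences are in log2 units. The share of probes well above background ran from 51.4% to 59.0% over the arrays, and 0 spots were saturated. The 14 pluripotent cell markers listed as a check were all measured, with summed signals (in units of the 75th percentile) of 967 in ESC, 719 to 1000 in OSKH and 778 to 872 in OSK. H1f8, the current symbol of H1foo, had a level of -1.34 ± 0.24 (SD, n = 4) over the OSKH arrays and, overlapping them, -1.51 ± 0.18 (SD, n = 3) over the OSK arrays, so it does not check the group labels. Pdgfra, Pdgfrb, Lum and Prrx1 of the fibroblast and feeder markers, and Sox17, Gata4, Gata6 and Afp of the differentiated lineage markers, had no tested probe. Summed signals of 11 measured fibroblast and feeder markers of 15 listed were 26.8 in ESC, 9.39 to 29.7 in OSKH and 6.15 to 11.7 in OSK. Those of 10 measured markers of differentiated lineages of 14 listed were 7.6 in ESC, 2.52 to 52.9 in OSKH and 3.13 to 4.58 in OSK. The highest value of both lists in the iPSC arrays came from OSKH 4. On OSKH 4, 7 of the 10 lineage markers lay above their own mean over the 8 arrays. Neurod1 (-3.60, the lowest of all arrays), Pax6 (-4.45) and Sox1 (-0.54) did not. Those 7 markers do not bear out the description of that array as undifferentiated, while its pluripotent marker sum was 787. A single slide held every array: its row 1 carried ESC with OSKH 1 to 3, its row 2 OSKH 4 with OSK 1 to 3.

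The array OSKH 1 stood apart in its histone signals. It was the highest of the 7 iPSC arrays for 30 of 44 core histone genes, against 24.1% of all features. OSK 1 was the lowest of the 7 for 24 of 44, against 11.4% of all features. The median deviation of the 44 genes from their own mean over the 8 arrays was 0.17 on ESC, 0.24 on OSKH 1, -0.12 on OSKH 2, 0.02 on OSKH 3 and 0.05 on OSKH 4. On the OSK arrays it was -0.25, -0.14 and 0.03. Both iPSC groups thus spanned a wide part of the same range, and OSK 3 lay above OSKH 2. The pluripotent cell markers had median deviations of 0.25 on ESC, 0.32 on OSKH 1, -0.24 on OSKH 2, -0.02 on OSKH 3 and -0.01 on OSKH 4. OSK 1 to 3 had 0.08, -0.14 and -0.12. The sign matched that of the histone genes on ESC, OSKH 1, OSKH 2 and OSK 2. It was opposite on OSKH 3, OSKH 4, OSK 1 and OSK 3. The part of these markers in the histone values was not tested. In bulk RNA, fewer cells in S phase and less histone RNA per cell cannot be told apart.

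**Figure D1:**
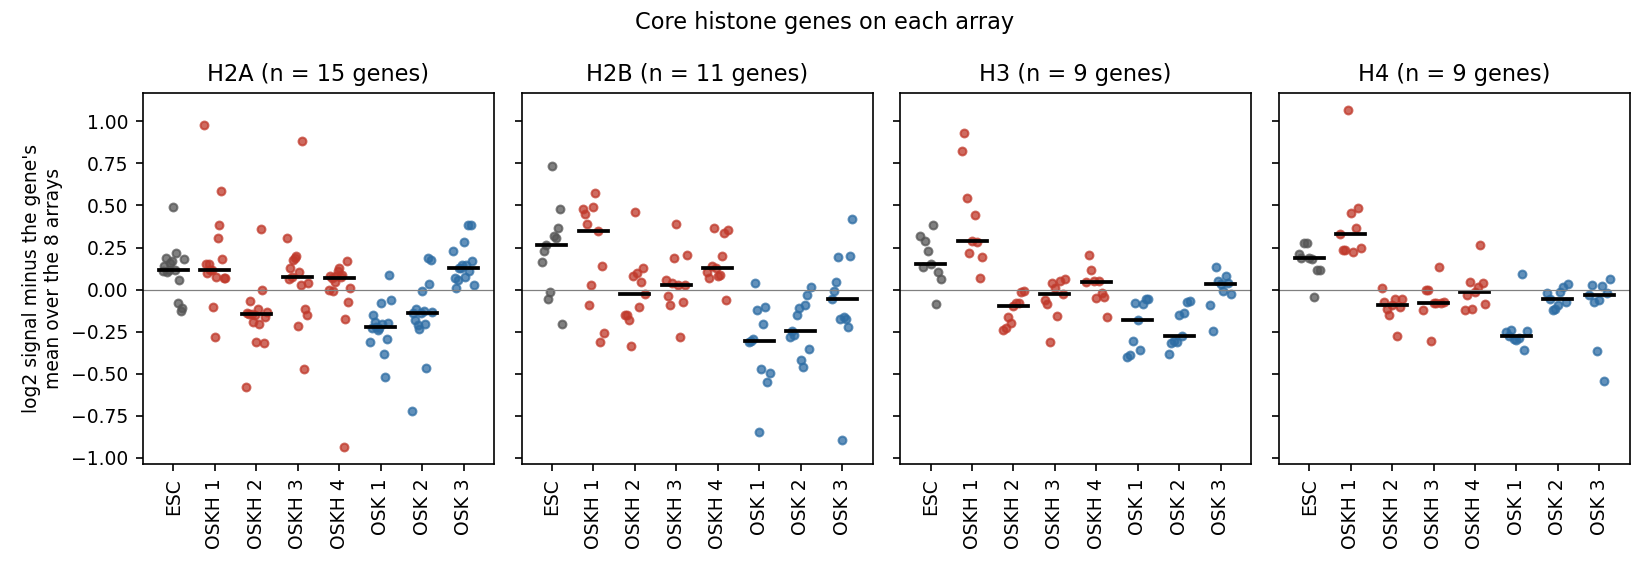
Each point is 1 core histone gene on 1 array, as its log2 signal minus that gene's mean over the 8 arrays, in panels for H2A (15 genes), H2B (11), H3 (9) and H4 (9), and black bars are medians (ESC grey, OSKH red, OSK blue). OSKH 1 is the highest iPSC array in the H2B, H3 and H4 panels, where OSK 1 or OSK 2 is lowest.

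The first comparison asks whether iPSCs of the OSKH group differ in histone expression from the OSK controls. No core histone gene passed the test between them (0 of 44 by limma with Benjamini-Hochberg adjustment over all features, smallest adjusted p = 0.519), and neither did any other feature (0.0% of 22685). The differences leaned one way: 39 of 44 genes lay higher in OSKH and 5 lower, with a median of 0.15 and a range of -0.23 to 1.08. Of all features 46.3% lay higher and 53.7% lower, with a median of -0.014. At an unadjusted p under 0.05, 3 genes lay higher (H2bc23, H2bc3 and H2bc22; background 3.19%) and 1 lower (H2ax; background 3.29%). All OSKH arrays lay above all OSK arrays for 4 genes, those 3 and H3c11 (background 3.15%), and below them for H2ax alone (background 4.19%). Without OSKH 1 the count was 38 of 44 and the median 0.107, and without OSKH 4, the array with the highest lineage marker signal, it was 39 of 44 with 0.153. With slide row as a block, 37 of 44 lay higher with a median of 0.178, 0 were called, and 0.207% of all features were called. Taking only the genes matched by current symbol or named outright, 37 of 41 lay higher, with a median of 0.16.

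By family, 11 of 15 H2A genes lay higher in OSKH (median 0.13), 10 of 11 H2B genes (0.24), 9 of 9 H3 genes (0.14) and 9 of 9 H4 genes (0.19). The H3 and H4 medians rested largely on OSKH 1: without it they were 0.05 and 0.07. The H3 and H4 counts were each 7 of 9 with slide row as a block, and 1 H3 gene, H3f3a, turned when probes were averaged. The Hist1 cluster had 29 of 30 genes higher (median 0.21) and Hist2 5 of 7 (0.16). The 40 cluster genes together had 36 higher (0.18), and the replacement variants 3 of 4 (0.04), or 1 of 4 with slide row as a block. The Hist1 median was 0.12 without OSKH 1. Without OSK 1 the Hist2 median was 0.10 and the H2A median 0.07.

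**Figure D2:**
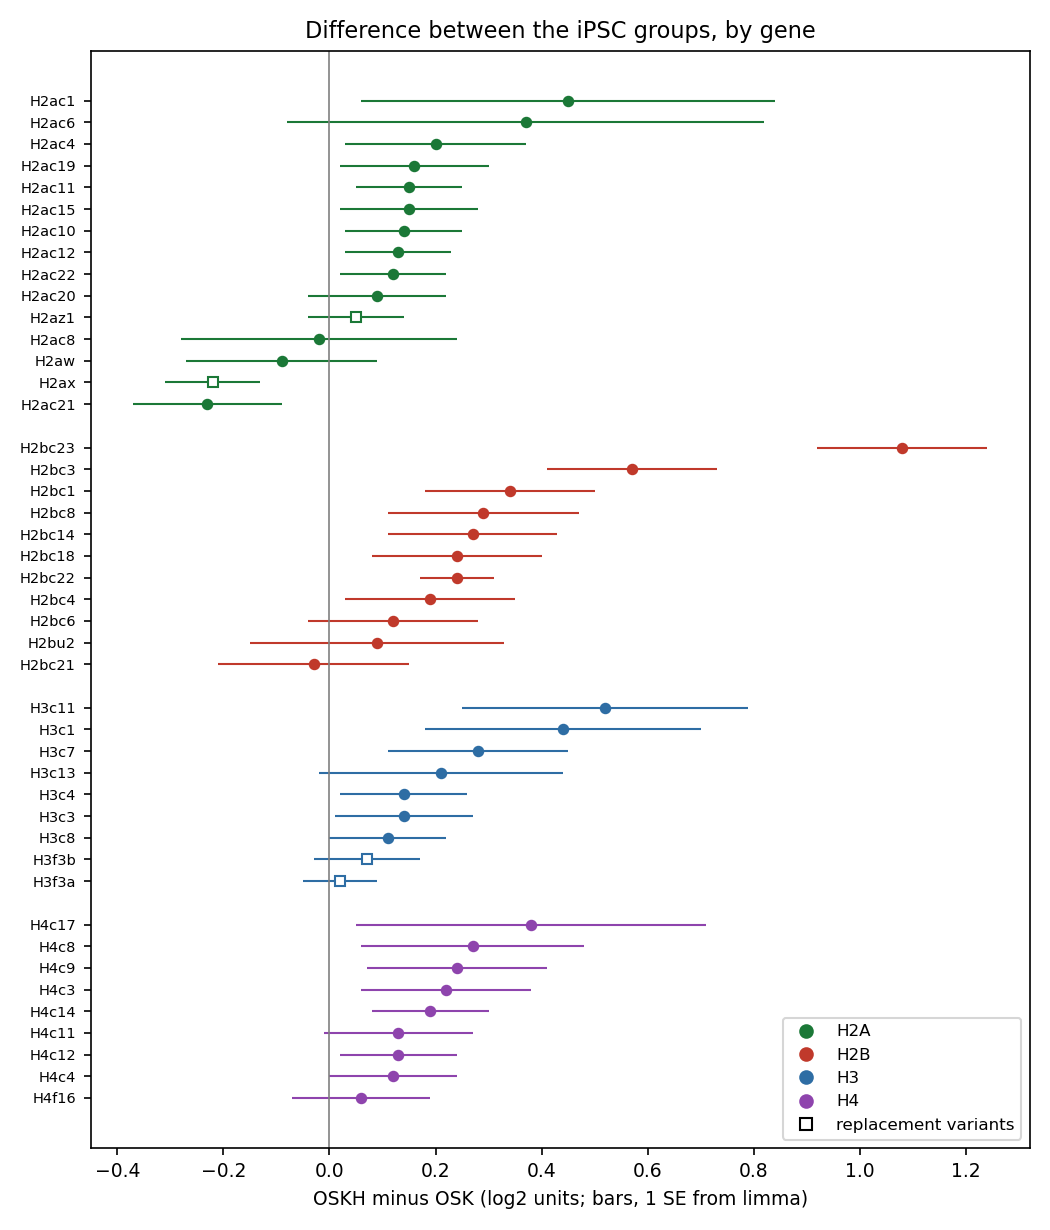
OSKH minus OSK log2 differences of the 44 measured core histone genes with 1 SE from limma, grouped by family, with the replacement variants as open squares. H2bc23 (1.08) and H2bc3 (0.57) lie farthest right, and 5 genes, among them H2ax (-0.22) and H2ac21 (-0.23), lie left of 0.

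Differences between arrays of the same number showed how unevenly this lean was spread. OSKH 1 lay above OSK 1 for 40 of 44 genes, with a median difference of 0.49 (50.4% of all features were above). OSKH 2 lay above OSK 2 for 30 of 44, with a median of 0.04 (51.1%). OSKH 3 lay above OSK 3 for 20 of 44, with a median of -0.01 (45.8%). The first pair differed by 0.35 in the median H2A gene, 0.68 in H2B, 0.47 in H3 and 0.52 in H4, while in the other pairs the family medians ran only from -0.04 to 0.10. OSKH 4, which has no OSK array of the same number, lay above the OSK mean for 37 of 44 genes, with a median of 0.18 (43.4% of all features). Its row of the slide held the 3 OSK arrays. The 34 measured S phase genes had medians of 0.0, -0.03 and -0.06 in the 3 pairs and -0.13 on OSKH 4.

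**Figure D3:**
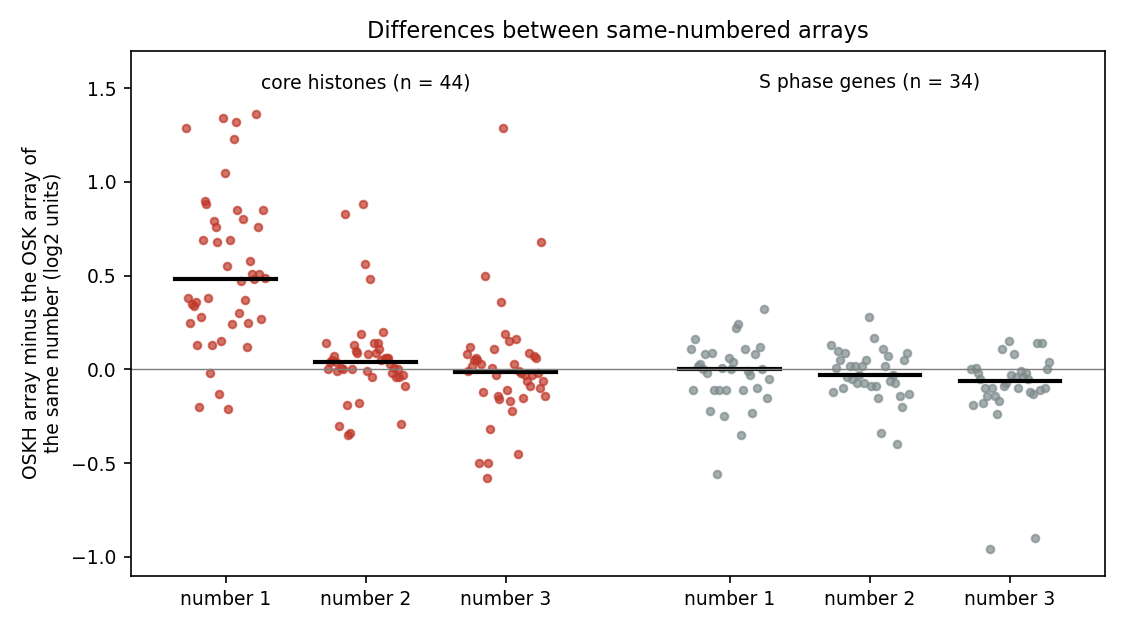
Differences in log2 units between the OSKH and OSK arrays of the same number for 44 core histone genes (red) and 34 S phase genes (grey), 1 point a gene, with medians as black bars. The histone median is 0.49 for number 1 and near 0 for numbers 2 and 3, and the S phase medians are near 0 throughout.

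H2bc23, an H2B gene of the Hist1 cluster, had a probe near background on several arrays. Its level was -3.50 on ESC, -3.74, -3.77, -3.84 and -4.15 on OSKH 1 to 4, and -5.08, -4.65 and -5.13 on OSK 1 to 3. The groups did not overlap, and OSKH lay near ESC. The OSKH minus OSK difference was 1.08 (SE 0.16, limma adjusted p = 0.519). The probe was well above background on 3 of 4 OSKH arrays and on 0 of 3 OSK arrays. With each OSK array set at the higher of the lowest well-measured signal and the probe's own signal, the OSKH mean was 1.52-fold higher. On the same basis ESC was 1.97-fold higher than OSK. These are not strict lower bounds: the OSKH mean includes an array not well above background, and the lowest well-measured signal comes from other probes. The rank of H2bc23 among the 44 genes depends on the background handling. Its difference of 1.08 was the largest, but with normexp background correction it was 0.27. That was below 0.6, the log2 value of the 1.52-fold difference. Among the core histone genes named by rule, it was also below H3c11 (0.491), H2bc3 (0.37), H4c17 (0.361), H2ac1 (0.323) and H2bc1 (0.316). With the main handling the H2bc23 difference ran from 0.993 to 1.231 over the fits that left out 1 array.

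H2bc3, another Hist1 gene for H2B, was measured on all arrays. It lay at -1.57 on ESC, at -1.31, -1.79, -1.86 and -1.80 on OSKH, and at -2.36, -2.35 and -2.05 on OSK. Every OSKH array was above every OSK array, and OSKH 1 stood above the rest. The difference was 0.57 (SE 0.16, 1.48-fold, limma adjusted p = 0.732), and 0.37 with normexp. H2bc22 lay at -3.04 on ESC, at -3.0, -2.95, -2.84 and -2.90 on OSKH, and at -3.15, -3.14 and -3.20 on OSK. Its arrays were tight within each group and did not overlap between them, but the difference was small, 0.24 (SE 0.07, limma adjusted p = 0.732), or 0.15 with normexp.

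H2bc1, which encodes the testis form of H2B, lay at 3.77 on ESC, at 4.08, 3.45, 3.66 and 3.71 on OSKH and at 3.29, 3.32 and 3.55 on OSK. The groups overlapped, and the difference was 0.34 (SE 0.16, limma adjusted p = 0.789), or 0.218 without OSKH 1. H2bc8 lay at -3.84 on ESC, at -4.18, -4.19, -4.29 and -4.38 on OSKH and at -4.87, -4.67 and -4.12 on OSK. OSK 3 was the highest of its iPSC arrays while the other OSK arrays lay below all OSKH arrays, and its probe was well above background on 3 of 4 OSKH and 1 of 3 OSK arrays (difference 0.29, SE 0.18). H2bc21 lay at -3.98 on ESC, at -4.02, -4.26, -3.89 and -3.56 on OSKH and at -3.89, -4.08 and -3.73 on OSK, and its groups overlapped throughout. The other H2B genes differed by -0.03 (H2bc21) to 0.27 (H2bc14).

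**Figure D4:**
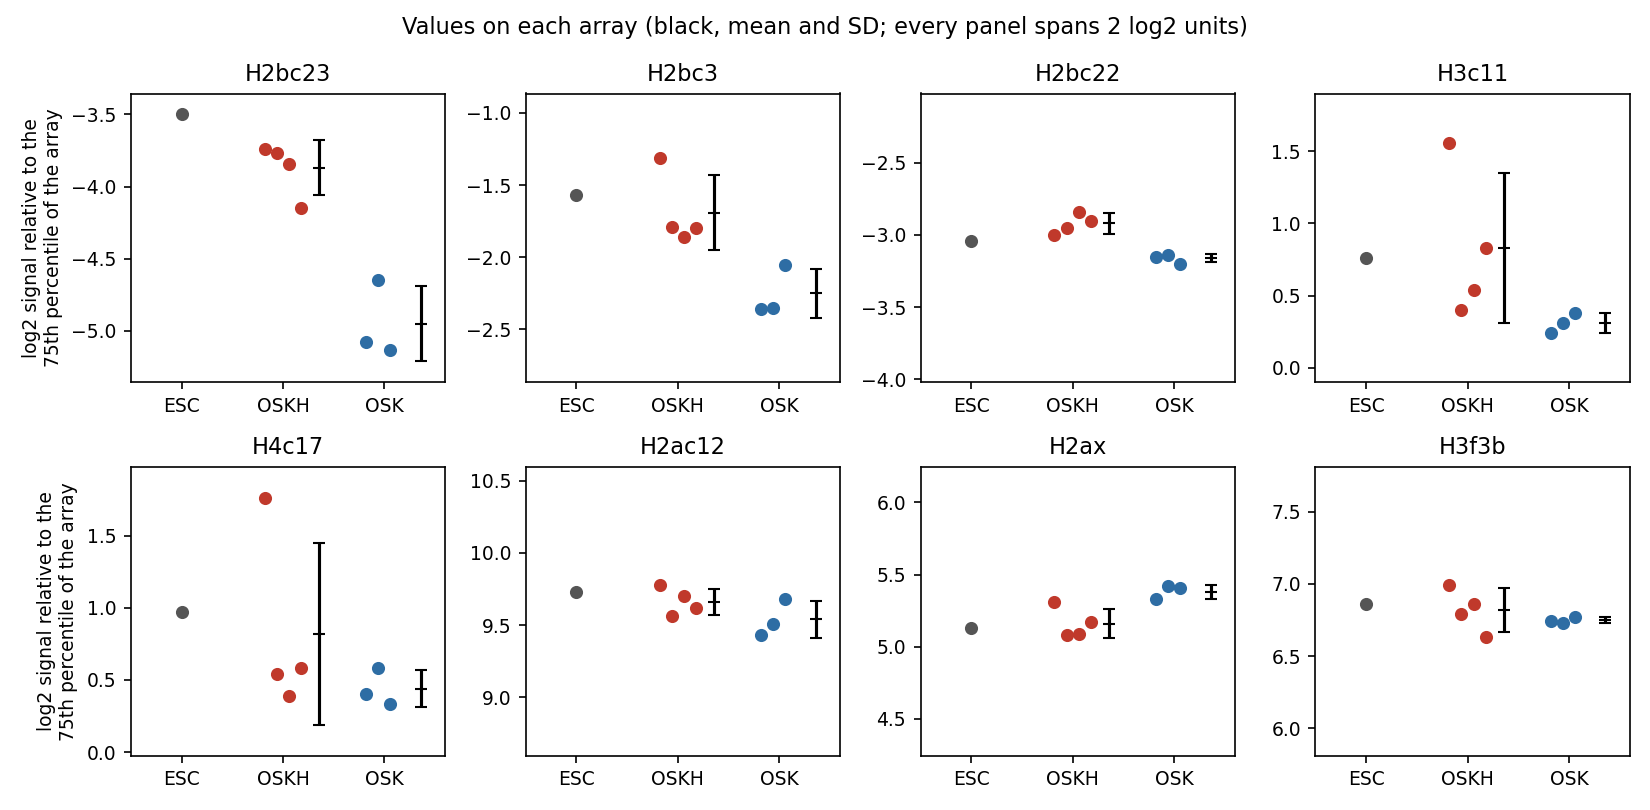
Log2 signals of 8 core histone genes on each array (ESC 1 array, OSKH 4, OSK 3), with the mean and SD of each iPSC group beside the points, in panels that all span the same height. The groups do not overlap for H2bc23, H2bc3, H2bc22, H3c11 and H2ax, and OSKH 1 is the high point of H3c11 (1.56) and H4c17 (1.76).

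Among H3 genes, H3c11 had the largest difference. It lay at 0.76 on ESC, at 1.56, 0.40, 0.54 and 0.83 on OSKH and at 0.24, 0.31 and 0.38 on OSK. The groups did not overlap, though the lowest OSKH array was just above the highest OSK array. The difference was 0.52 (SE 0.27, limma adjusted p = 0.826), and 0.281 without OSKH 1. H3c8 lay at 0.12 on ESC, at 0.49, 0.13, 0.26 and 0.19 on OSKH and at 0.12, 0.07 and 0.29 on OSK, with ESC inside the range of OSK. The other H3 cluster genes differed by 0.11 (H3c8) to 0.44 (H3c1).

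The H4 genes encode 1 protein from many copies. H4c14, the H4 gene with the smallest p, lay at 7.96 on ESC, at 7.92, 7.57, 7.68 and 7.73 on OSKH and at 7.44, 7.56 and 7.61 on OSK. OSKH 2 fell within the OSK range, and the difference was 0.19 (SE 0.11, limma adjusted p = 0.839). A second, much dimmer probe of H4c14 differed by 0.35. H4c17 lay at 0.97 on ESC, at 1.76, 0.54, 0.39 and 0.58 on OSKH and at 0.40, 0.58 and 0.33 on OSK. Apart from OSKH 1, its iPSC arrays shared 1 range, and the difference of 0.38 (SE 0.33) was close to its error. The H4 differences ran from 0.06 (H4f16) to 0.38.

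The H2A genes held both steady and highly variable members. A set of 8 cluster genes with signals of 7.01 to 9.78 on the iPSC arrays differed by only 0.09 to 0.20 between the groups. H2ac12 is an example, at 9.73 on ESC, 9.78, 9.56, 9.70 and 9.62 on OSKH and 9.43, 9.51 and 9.68 on OSK (difference 0.13, SE 0.10). OSKH 2 and OSKH 4 lay below OSK 3. H2ac10 lay at 9.52 on ESC, at 9.53, 9.24, 9.44 and 9.46 on OSKH and at 9.15, 9.24 and 9.45 on OSK (0.14). There OSKH 2 and OSKH 3 lay below OSK 3. H2ac11 lay at 9.37 on ESC, at 9.28, 9.04, 9.31 and 9.25 on OSKH and at 9.03, 9.0 and 9.19 on OSK (0.15). H2ac15 lay at 9.26 on ESC, at 9.26, 9.0, 9.32 and 9.19 on OSKH and at 8.92, 8.93 and 9.27 on OSK (0.15). In all 4 genes OSK 3 was the highest OSK array and OSKH 2 the lowest OSKH array. H2ac19, in the same set, differed by 0.16 on the probe used and by 0.55 on a dimmer one. The near-identical H2A copies may share these probes, so the set need not be 8 independent measurements.

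H2ac1, the testis form of H2A, lay at -1.01 on ESC, at -0.14, -1.70, -0.81 and -1.12 on OSKH and at -1.43, -1.84 and -0.89 on OSK. Its arrays ranged over 1.7 log2 units and overlapped (difference 0.45, SE 0.39). H2ac6 lay at -4.53 on ESC, at -4.07, -4.09, -3.57 and -5.39 on OSKH and at -4.97, -4.92 and -4.07 on OSK. It was well above background on 3 of 4 OSKH arrays, 1 of 3 OSK arrays and not on ESC, and its difference of 0.37 (SE 0.45) was smaller than its error. H2ac21, of Hist2, lay at -1.17 on ESC, at -1.94, -1.97, -1.88 and -1.53 on OSKH and at -1.74, -1.67 and -1.38 on OSK. Its groups overlapped (difference -0.23, SE 0.14), and with slide row as a block the sign turned to 0.071. H2aw, of Hist3, lay at 0.21 on ESC, at 0.52, 0.02, 0.22 and 0.51 on OSKH and at 0.14, 0.37 and 0.72 on OSK. H2ac8 lay at -2.79 on ESC, at -2.26, -2.85, -3.32 and -3.02 on OSKH and at -3.14, -2.66 and -2.74 on OSK. H2aw (-0.09), H2bc21 (-0.03) and H2ac8 (-0.02) were the other cluster genes on the lower side, each with overlapping groups and a difference under its SE.

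The 4 replacement variants had ranges over the iPSC arrays of 0.13 (H3f3a) to 0.36 (H3f3b). This was not particular to them: bright cluster genes such as H2ac11 (0.32) and H2ac12 (0.35) were as steady as H2ax (0.33) and H3f3b. H2ax lay at 5.13 on ESC, at 5.31, 5.08, 5.09 and 5.17 on OSKH and at 5.33, 5.42 and 5.41 on OSK. Every OSK array lay above every OSKH array, opposite to most of the cluster genes, with a difference of -0.22 (SE 0.09, 1.17-fold lower in OSKH, limma adjusted p = 0.752). It ran from -0.268 to -0.194 over the fits that left out 1 array. H2az1 lay at 9.08 on ESC, at 8.97, 8.77, 8.94 and 8.91 on OSKH and at 8.84, 8.77 and 8.93 on OSK (difference 0.05, SE 0.09). H3f3a lay at 6.10 on ESC, at 6.06, 5.98, 5.97 and 5.95 on OSKH and at 5.94, 5.92 and 6.03 on OSK (difference 0.02, SE 0.07). H3f3b lay at 6.86 on ESC, at 6.99, 6.79, 6.86 and 6.63 on OSKH and at 6.74, 6.73 and 6.77 on OSK (difference 0.07, SE 0.10). These 3 genes showed no separation of the groups, and averaging probes or blocking on slide row changed the sign for H3f3a, as the row block did for H3f3b.

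The second comparison sets each iPSC group beside the single ESC array. Both contrasts share that array, and its spread is assumed to equal that of the iPSC groups. Against ESC, 10 of 44 core histone genes lay higher in OSKH and 34 lower (median -0.12), while of all features 40.1% lay higher and 59.9% lower (median -0.054). In OSK, 5 of 44 lay higher and 39 lower (median -0.28), against 42.7% and 57.3% of all features (median -0.046). By limma 0 of 44 were called in either contrast (0.0% of all features in both). At an unadjusted p under 0.05, 1 gene lay lower in OSKH, H2ac21 (-0.66, SE 0.21, background 2.67%), and 4 lay lower in OSK (background 3.27%). Those were H2bc3 (-0.69, SE 0.25), H4c14 (-0.42, SE 0.16), H2bc23 (-1.45, SE 0.24) and H2bc8 (-0.71, SE 0.27). Of the 3 OSK arrays, 0 were well above background for H2bc23 and 1 for H2bc8. The count of 4 in OSK was 11 without OSKH 1 and 1 without OSK 1. The OSKH lean depends on scaling, with 19 rather than 10 of 44 higher and a median of -0.031 after quantile normalization. Its median ran from -0.196 (without OSKH 1) to -0.071 (without OSKH 2) when 1 array was left out.

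ESC was above all 7 iPSC arrays for 10 of 44 genes (18.5% of all features) and below all of them for 0 (8.09%). The mean of the 7 iPSC arrays lay below ESC for 36 of 44 genes (59.4% of all features). It lay below ESC by more than the other well-measured genes in H2ac21 (-0.56) and H3c7 (-0.44). The measured signals of H2bc23 (-0.84) and H2bc8 (-0.54) give no rank, because several iPSC arrays were not well above background for them. H3c7 lay at 1.09 on ESC, at 1.15, 0.63, 0.55 and 0.76 on OSKH and at 0.35, 0.43 and 0.70 on OSK, so OSKH 1 alone reached the ESC level. On the other side lay H2bu2 (0.24), H2aw (0.15), H2ax (0.13) and H3c8 (0.10). H2bu2, of Hist3, lay at 0.58 on ESC, at 0.53, 0.76, 0.99 and 1.14 on OSKH and at 0.29, 0.80 and 1.21 on OSK, so ESC fell inside both groups.

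Across the 7 iPSC arrays the core histone genes varied together. The median correlation of a gene with the mean of the other 43 was 0.80, and 22 genes reached 0.8, while 2.75% of the other features did and their median was 0.01. These correlations are descriptions over 7 arrays that share a slide, and probes of near-identical copies can share signal. Among cluster genes the median pairwise correlation was 0.89 for H4, 0.89 for H3, 0.60 for H2A and 0.35 for H2B. With the replacement variants it was 0.83 for H3 and 0.56 for H2A. Among the 8 bright H2A cluster genes described above it was 0.91. H2bc14 (0.99), H2bc1 (0.98) and H4c14 (0.98) followed the mean of the other genes most closely. H2ac21 (-0.17), H2ax (-0.13) and H2bc6 (-0.31) ran against it. Of the genes whose arrays lay higher in OSKH with no overlap, H3c11 had 0.91, H2bc3 0.90, H2bc23 0.50 and H2bc22 0.36. A gene's range over the iPSC arrays ran from 0.13 (H3f3a) to 1.82 (H2ac6), with a median of 0.64 against 0.57 for all features.

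Some cluster genes are transcribed away from each other from a shared promoter region. Among genes with a window there were 10 such pairs with starts within 500 bases, and both genes were measured in 3. H2ac22 and H2bc22, 240 bases apart, differed between OSKH and OSK by 0.12 and 0.24. H2ac8 and H2bc8, 180 bases apart, differed by -0.02 and 0.29. H2bc1 and H2ac1, 281 bases apart, differed by 0.34 and 0.45. H2bc23 faces H2ac23, which has no named probe, across 168 bases. Among measured H2A and H2B cluster genes with a window, the 13 with an octamer before their start had 11 higher in OSKH (median 0.24). The 9 without had 8 higher (0.15). H2bc4 and H2bc21 had no window and are in neither group. The windows of a pair overlap, so the same octamer can count for both genes.

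Other genes of histone supply were set beside these values. Of all features 46.3% lay higher in OSKH and 0.0% were called. Of the genes for histone messenger RNA processing, which cut the transcript at the stem-loop and degrade it after S phase, 6 of 18 lay higher in OSKH and 0 were called (median -0.04, or -0.09 with slide row as a block). Ncbp1, a subunit of the cap-binding complex, differed by 0.09 (SE 0.09), and Lsm11, a subunit of the U7 particle, by -0.15 (SE 0.13). The others with the smallest p were Eri1, the exonuclease that trims the histone stem-loop (0.08), Ncbp2 of the cap-binding complex (-0.11), and the 3' end processing factors Fip1l1 (0.06) and Cpsf2 (-0.08). Of the histone chaperones, which carry histones to DNA, 12 of 28 lay higher and 0 were called (median -0.00). With slide row as a block the count was 7 of 28 and the median -0.07. Asf1a, a chaperone of H3 and H4, differed by 0.24 (SE 0.13), Ssrp1, a subunit of FACT, by 0.16, and Rbbp7, which binds H4, by 0.08. Hat1, which acetylates new H4, differed by -0.16 and Znhit1, a subunit of the complex that deposits H2A.Z, by -0.15.

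Among 34 measured S phase genes 9 lay higher in OSKH and 25 lower, against 46.3% and 53.7% of all features. Their median was -0.06 and 0 were called by limma. At an unadjusted limma p under 0.05, 1 gene lay lower (background 3.29%). That gene was Gins2, of the replicative helicase, at -0.34 (SE 0.13, limma adjusted p = 0.752). Mcm2, of the same helicase and also a histone chaperone, differed by -0.17 and E2f2, a transcription factor of S phase genes, by -0.26, while Pcna, the sliding clamp (0.07), and Ccna2, cyclin A2 (0.06), lay on the other side. Leaving out 1 array gave from 5 (without OSKH 1) to 13 (without OSKH 4) of 34 higher. The count was 13 with the array number as a block, 12 with normexp background correction and 4 with slide row as a block. The difference between the S phase and the histone lists was not tested. Of the other histone variants 5 of 11 were measured and 0 called. Macroh2a1, linked to silent chromatin, differed by 0.34 (SE 0.14, limma adjusted p = 0.767), H2aj by 0.15, Cenpa, the centromere variant, by 0.08 and Macroh2a2 by -0.13. H2aj followed the mean of the core histone genes with a correlation of 0.94. The H2aj probe used may also read H2A cluster genes, which could not be checked. With probes averaged, the H2aj difference between OSKH and OSK turned to -0.15.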

How the data were processed

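The labels describe amplification of total RNA and Cy3 labelling. Per the file headers, the deposited intensity of each spot is Agilent Feature Extraction 11.5.1.1's processed signal, background-subtracted but not scaled between arrays, beside flags of 0 or 1 for spots well above background, saturated or outlying. The series' deposited value table was log2: for at least 99.7% of probes on every array it matched, within 0.01, the log2 intensity shifted by a constant (column medians -3.72 to -3.61). The software behind that table is not stated.

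Control and outlier spots were left out (3671 control spots and 103 to 132 outlier spots per array), spots were averaged per probe, and 55667 probes were kept. The value is the log2 processed signal minus the array's 75th percentile. RefSeq accessions were matched without versions to symbols of assembly GRCm38.p6, which named 27650 probes, and each gene is given by the probe with the highest mean. Features that 3 or more of the 8 arrays measured well above background were fitted in limma 3.58.1 under R 4.3.3 (3 groups, lmFit and eBayes, 5 residual and 1.85 prior degrees of freedom), with Benjamini-Hochberg adjustment over 22685 features and a threshold of 0.05. The spread rests on the 7 iPSC arrays, as ESC has 1 array. The array number is taken from the titles, which do not state that same-numbered OSKH and OSK arrays are paired. Over all features, same-numbered arrays' deviations from their group means correlated at 0.465, 0.259 and 0.450. These arrays also share a slide column, which cannot be told apart from a pairing. On simulated data for OSKH against OSK (22685 features, 200 changed) the test recovered 59% of 2-fold and 89% of 4-fold changes with 6 false calls. The simulated noise was independent between arrays, unlike these correlated arrays. Changes below 2-fold were not simulated, so the rates do not cover most of the histone differences. The number of arrays limits the precision.

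The members and lists were chosen with earlier results of these data known. Genes were named by rule: the replacement variants, the 6 smallest p in each direction for OSKH minus OSK, the 4 largest differences from ESC in each direction, the 4 brightest and 4 dimmest, the 4 with the largest range, and of each other list the 3 smallest p in each direction, of which 1 gene is not reported here. Genes named as the end of a range, in a set of probes, by a divergent promoter or by their correlation were chosen after their values were seen. Alternatives covered background correction, scaling, filter, probe choice, slide row, array number, the value table and each iPSC array left out.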

Additional observations from a re-analysis of the deposited data

Results flagged for a closer look

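In 5 of the 44 core histone genes 1 of the 4 OSKH arrays lay far from the other 3 by Dixon's test. OSKH 1 was far above the rest for H2bc3 (-1.31), H4c17 (1.76), H4c3 (3.01) and H4f16 (6.27). OSKH 2 was far below them for H2ac22 (8.96). That is 11.4% of the genes, against 7.11% of all features, and chance flags about 1 in 20 groups.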

How the results depend on the processing

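For OSKH minus OSK, 0 of 44 core histone genes were called under any of the 18 alternatives, and between 37 and 42 of 44 lay higher (36 of 41 when dim probes were dropped). Leaving out 1 array gave 37 to 42 higher and medians of 0.107 to 0.221. With the array number as a replicate block, 39 lay higher with a median of 0.153 and 0 were called, and the block changed no call. Against ESC, quantile normalization gave 19 genes higher in OSKH instead of 10, and leaving out 1 array at a time gave 3 (without OSK 3) to 7 (without OSK 1) higher in OSK instead of 5. Of the genes named by the rule, the slide row block turned H3f3a (-0.018), H3f3b (-0.114), H2ac21 (0.071), H2aw (0.105), H2bc21 (0.343), H2ac6 (-0.734), Eri1 (-0.082), Ncbp2 (0.018), Asf1a (-0.037), Rbbp7 (-0.044), Cenpa (-0.076) and Ccna2 (-0.054). It also turned H4c11 and H4f16, which left 7 of 9 H4 genes higher. It rests on OSKH 4 as the only OSKH array in the OSK row. The mean of probes turned H3f3a (-0.011) and H2aj (-0.150), quantile normalization H2ac8 (0.009), and OSKH 1 to 3 against OSK 1 to 3, with or without the array number as a block, H2ac8 (0.035) and H2bu2 (-0.007). Leaving out 1 array at a time also turned H2aw (-0.225 to 0.066), H2bc21 (-0.155 to 0.079), H2ac8 (-0.22 to 0.136) and H2bu2 (-0.151 to 0.31). The cause was not tested. Normexp used the median spot signal, a choice made after seeing the data, as was the fit of arrays 1 to 3 with no number term. Dim probes such as H2bc23 depend on the background correction.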
